A study of Mus musculus with 8 samples.

Results

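The genes described here are 9 regulators, receptors, enzymes and membrane proteins of the red cell lineage, measured in stem cells that lie upstream of it. They are Gata1 and Klf1, the receptors Epor and Tfrc, the carbonic anhydrases Car1 and Car2, and Slc4a1, Ank1 and Epb42 of the red cell membrane. Members were all probe sets whose annotation gave a single gene symbol from this list, which selected 20 of the 45101 probe sets in the table. They stand for 9 of the 18194 genes that had such a probe set. Of the 20, 3 are Tfrc control probe sets of the array's manufacturer.

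RNA came from haematopoietic stem cells of C57BL/6 mouse fetal liver, from Crebbp+/- embryos and from wild-type embryos. CBP, the product of Crebbp, is a coactivator of transcription that acetylates histones. The labels do not give the part of the gene that was altered. Cells had been sorted as lineage-negative (Lin-) cells that carried Sca-1 and AA4.1 and stained strongly for c-Kit. The labels do not name the antibodies of the lineage gate, which as a rule removes erythroid cells. Each preparation combined 15 embryos, and the age is given as 14.5 days post coitum in the description and as 14 in the characteristics. From each preparation 12 ng of total RNA was amplified with the Ovation system and hybridised to Affymetrix mouse expression arrays. Each genotype had 2 numbered samples and each sample 2 arrays. Nothing in the labels says that the arrays of a sample came from separate cells, so they were averaged, and n = 2 samples per genotype throughout. Nor is it stated that the numbered samples came from separate litters, so p-values measure the spread between these preparations. In bulk RNA of this kind, fewer cells of a type and less RNA per cell cannot be told apart.

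In the fetal liver, progenitors become red cells under erythropoietin, which binds the receptor encoded by Epor and signals through Jak2 and Stat5. Gata1 binds GATA motifs and Klf1 binds CACCC motifs in erythroid genes, and CBP is a known partner of both factors. As cells mature they take up iron through the transferrin receptor, encoded by Tfrc, and build a membrane in which band 3 (Slc4a1) is tied to the spectrin skeleton by ankyrin (Ank1) and protein 4.2 (Epb42).

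The 250 bases upstream of the start of Gata1, Klf1 and Epor are shown because they belong to the regulators and the erythropoietin receptor among these genes, and because the motifs of Gata1 and Klf1 can be looked for in them. They come from RefSeq on GRCm38.p6, run 5′ to 3′ on the gene's strand, and carry matches in capitals. The letters searched on both strands were GATA with A or T before it and A or G after it, CACCC, and TGACG, part of the site of the CBP partner CREB, and no match of one overlapped a match of the other. Gata1 lies at chrX:7967911-7968160 on the minus strand, Klf1 at chr8:84901732-84901981 on the plus strand, and Epor at chr9:21963577-21963826 on the minus strand.
Gata1: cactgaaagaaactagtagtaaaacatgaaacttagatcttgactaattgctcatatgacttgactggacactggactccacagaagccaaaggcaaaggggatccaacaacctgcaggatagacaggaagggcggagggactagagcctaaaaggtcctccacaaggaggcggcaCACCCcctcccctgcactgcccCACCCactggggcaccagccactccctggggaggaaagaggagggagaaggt
Klf1: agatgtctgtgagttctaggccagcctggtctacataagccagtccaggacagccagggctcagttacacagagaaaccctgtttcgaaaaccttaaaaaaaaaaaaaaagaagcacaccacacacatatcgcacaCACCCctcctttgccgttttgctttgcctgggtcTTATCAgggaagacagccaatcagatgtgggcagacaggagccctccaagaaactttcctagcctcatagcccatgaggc
Epor: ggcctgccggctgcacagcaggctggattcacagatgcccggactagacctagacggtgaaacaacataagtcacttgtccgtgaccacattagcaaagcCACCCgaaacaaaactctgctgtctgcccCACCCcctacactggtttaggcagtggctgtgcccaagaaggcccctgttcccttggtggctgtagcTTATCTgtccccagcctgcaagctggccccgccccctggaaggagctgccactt
Klf1 held 1 GATA match, 80 bases before the start, and 1 CACCC match. Epor held 1 GATA match, 54 bases before the start, and 2 CACCC matches. The Gata1 window held 2 CACCC matches and no GATA match of these letters. Of 32851 promoter windows of this length, 26.5% held a GATA match, 52.0% a CACCC match and 17.8% a TGACG match, which none of these 3 windows held. Among the member windows not shown, 1 of Tfrc held a TGACG match, 213 bases before the start. The other Tfrc window and that of Epb42 held none. A match is a run of letters and not a binding site.

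Values are GCRMA log2 signals, in which unexpressed probe sets collapse to a low value of their own rather than to 0. Background was therefore gauged in several ways. The median of all probe sets other than controls was 2.67 and 2.69 in the Crebbp+/- samples, against 2.73 and 2.73 in the wild-type samples. The 95th percentile of 44 olfactory receptor probe sets, a family not expected in blood, was 2.39 and 2.43 in the Crebbp+/- samples, against 2.38 and 2.48 in the wild-type samples. Distance from background is the mean signal of a probe set minus the sample medians. Levels of different probe sets cannot be set against each other, because each responds to its transcript in its own way. The array set no depth of counting, and the number of samples limits the precision. Genes bound up with the sort were bright: Kit gave 9.34 and 9.31 in Crebbp+/-, against 9.36 and 9.05 in wild type, and Cd93, which carries the AA4.1 epitope, gave 12.24 and 12.16, against 12.33 and 12.05. No probe set was matched to Ly6a, which encodes Sca-1.

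By the sample median the 9 genes split into 3 with signal in every sample and 5 below the median in every sample, with Slc4a1 between them. Gata1, Tfrc and Car2 together had 7 probe sets, controls included, that exceeded both background measures in all 4 samples. All probe sets of Klf1, Epor, Car1, Ank1 and Epb42 lay below the median of their sample in all 4 samples. By the lower measure, the olfactory receptor percentile, Epor exceeded background in all 4 samples, Klf1 in 1 and Epb42 1417337_at in 2. Altogether 11 of the 20 probe sets lay below the sample median in all 4 samples, and 7 of these 11 moved by less than 0.1 over the 8 arrays.

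**Figure D1:**
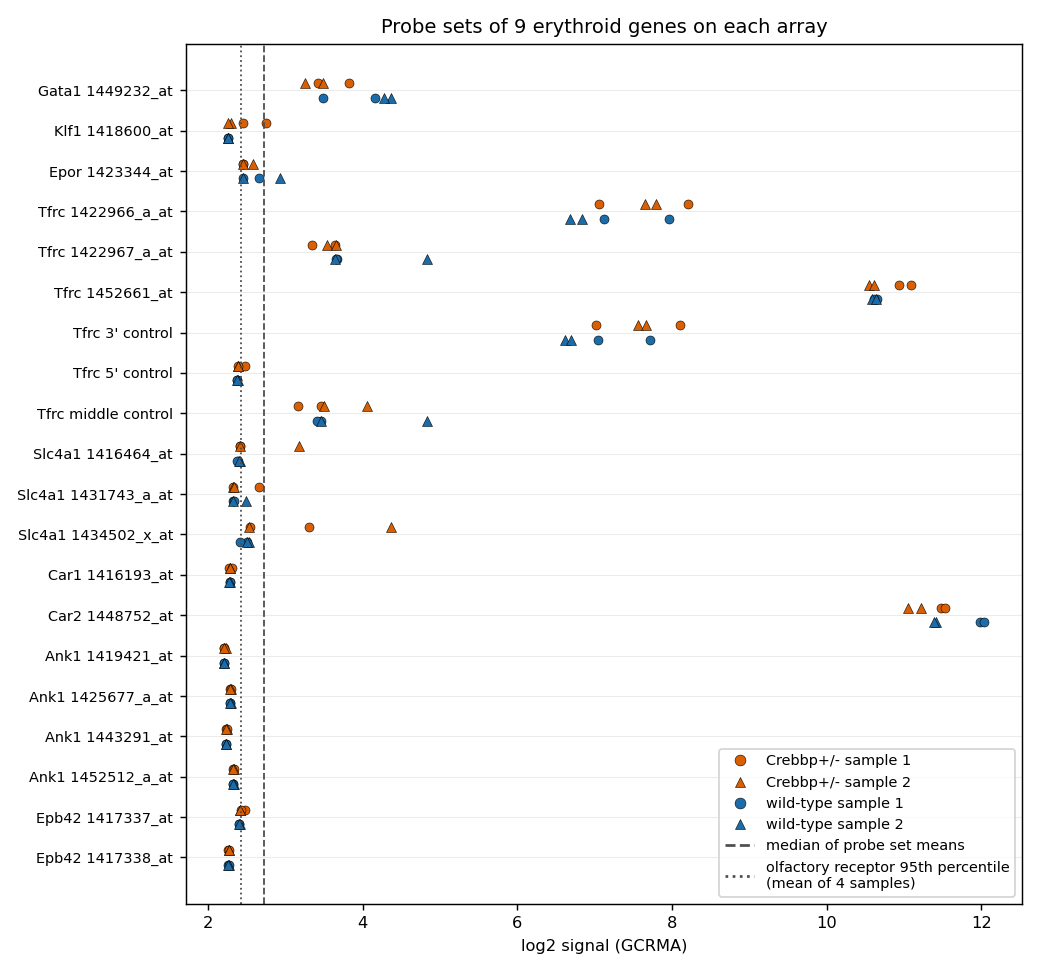
Log2 signal (GCRMA) of each of the 20 probe sets on each of the 8 arrays, Crebbp+/- in orange above wild type in blue, with circles for sample 1 and triangles for sample 2. The dashed line is the median of probe set means and the dotted line the olfactory receptor 95th percentile averaged over samples; Car2 and the brightest Tfrc probe set lie far to the right, and Klf1, Epor, Car1, Ank1 and Epb42 crowd around the lines.

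Between genotypes no probe set of these genes passed the test. The test was limma's moderated fit of the 4 sample averages with Benjamini-Hochberg adjustment over all 22518 probe sets with a mean above 2.72, the median. On the whole array 0 of them passed at an adjusted p of 0.05, which is 0.0%, and the lowest adjusted p was 0.991. At an unadjusted limma p under 0.05 there were 1089, which is 4.84%, with 1.23% higher and 3.61% lower in Crebbp+/-. Of the 20 probe sets of the 9 genes, 6 were tested, from Gata1, Tfrc, Slc4a1 and Car2, and 1 of the 6 had an unadjusted p under 0.05. Of the 6, 3 had a positive and 3 a negative difference of Crebbp+/- minus wild type. In 4 of the 6 the samples of the genotypes did not overlap, 2 with Crebbp+/- above and 2 with it below, beside 31.0% of all probe sets tested (15.6% with Crebbp+/- above and 15.4% with it below). Slc4a1 1434502_x_at, which had the p under 0.05, is 1 of the 2 with Crebbp+/- above. It entered the test only through the Crebbp+/- samples. The median difference over all 20 was 0.0074 log2 units, beside 0.019 over all probe sets tested. Whether a probe set entered the test was decided by brightness: the dimmest to enter was a Slc4a1 probe set with a mean of 2.84, and the brightest other than a control to stay out was Epor with a mean of 2.56.

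Gata1, the factor on which red cell, platelet and mast cell maturation depends, gave a modest signal that was lower in both Crebbp+/- samples than in both wild-type samples. Its 1 probe set, 1449232_at, had log2 signals of 3.62 and 3.37 in the Crebbp+/- samples 1 and 2, against 3.82 and 4.32 in the wild-type samples 1 and 2. The averages were 3.50 ± 0.18 in Crebbp+/- and 4.07 ± 0.35 in wild type (SD, n = 2 each), a difference of -0.58 log2 units with a standard error of 0.28. By limma the 95% interval ran from -1.30 to 0.15, with an unadjusted p of 0.095 and an adjusted p of 0.991, so the difference did not pass. On single arrays the genotypes overlapped: those of Crebbp+/- gave 3.42, 3.82, 3.25 and 3.49, against 4.16, 3.48, 4.37 and 4.27 in wild type. One wild-type array thus lay among the Crebbp+/- arrays, and the other 3 lay above all of those. Most of the difference came from the samples numbered 2, where it was -0.95, against -0.20 in the samples numbered 1. Signal lay 1.08 log2 units above the background median, between 0.68 and 1.59 by sample, at percentile 58.6 of all probe sets.

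Klf1, which switches on adult globin and many membrane genes in maturing red cells, stayed at background. Probe set 1418600_at gave 2.61 and 2.28 in Crebbp+/-, against 2.26 and 2.26 in wild type. All 4 values lay below the sample medians, at a mean distance of -0.35, and the probe set was too dim to be tested. The Crebbp+/- samples lay above the wild-type samples, but the gap was almost all in sample 1, whose arrays read 2.46 and 2.75. The difference was 0.35 within sample number 1 and 0.02 within number 2.

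Among 20 erythroid transcription factors and cofactors, 18 were bright enough to be tested and none passed. Positive differences numbered 6 and negative ones 12, with a median of -0.08 beside 0.019 for all probe sets tested. In 8 of the 18 the genotypes did not overlap, 2 with Crebbp+/- above and 6 with it below, beside 31.0% of all probe sets tested (15.6% above, 15.4% below). The lowest p-values were those of Lmo2 and Gata1. Lmo2, which bridges the Tal1 and Gata complex on DNA, gave 11.63 and 11.65 in Crebbp+/-, against 11.88 and 11.92 in wild type. Its difference of -0.26 (standard error 0.12) was small but of like size within the sample numbers, -0.24 and -0.27. Zfpm1, which encodes the Gata1 cofactor FOG1, gave 5.90 and 6.16 in Crebbp+/-, against 6.18 and 6.67 in wild type. Its difference was -0.39 with a standard error of 0.32. Klf3 ran the other way without overlap, with 9.47 and 9.54 in Crebbp+/-, against 9.37 and 9.17 in wild type. Its difference was 0.23 with a standard error of 0.19. Gata2, the family member that precedes Gata1 in stem cells, gave 11.29 and 10.53 in Crebbp+/-, against 11.29 and 10.12 in wild type, and overlapped between genotypes. It differed more between sample numbers than between genotypes, with both samples numbered 2 below both numbered 1. Tal1, Myb, Bcl11a and Ikzf1 all stood far above background in every sample, whereas Klf1 alone of this list lay below the median in all 4.

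**Figure D2:**
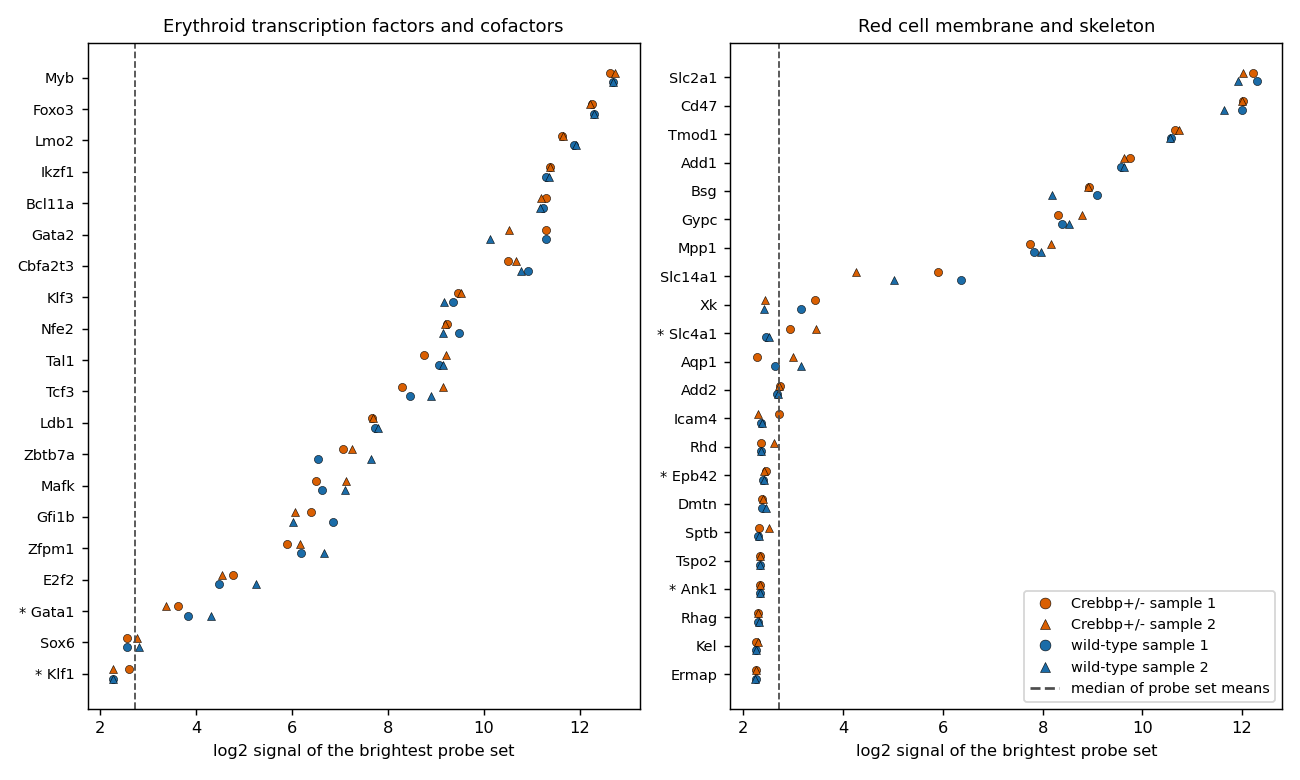
Log2 signal (GCRMA) of the brightest probe set of each gene, for erythroid transcription factors and cofactors on the left and red cell membrane and skeleton genes on the right, Crebbp+/- in orange drawn above wild type in blue, circles for sample 1 and triangles for sample 2, asterisks at the genes described here. Genes are ordered by signal for legibility only. Klf1 sits just below the dashed background median. In every sample 9 of the 22 membrane genes lay below the median of that sample.

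Epor, the erythropoietin receptor, could not be told from background by the median. Probe set 1423344_at gave 2.45 and 2.52 in Crebbp+/-, against 2.56 and 2.69 in wild type. Each value lay above the olfactory receptor 95th percentile of its sample and below the sample median, at a mean distance of -0.15. Both Crebbp+/- samples lay below both wild-type samples. The difference was -0.14, with -0.10 within sample number 1 and -0.18 within number 2, and no test was made. The wild-type arrays read 2.45, 2.66, 2.94 and 2.45, and without the first array of wild-type sample 2 the difference was -0.019.

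Downstream of that receptor most signalling genes were bright enough to be tested. Of 20 genes listed, Epor included, 19 were matched (no probe set was matched to Lyn) and 16 tested, with none passing. Epor and the signalling genes Socs1 and Irs2 lay below the median in all 4 samples. Positive differences numbered 14 and negative ones 2, beside 53.0% positive among all probe sets tested. Their median was 0.20 beside 0.019 for all probe sets tested, and 0.06 within sample number 1 and 0.26 within number 2. In 5 of the 16 the genotypes did not overlap, 4 with Crebbp+/- above and 1 with it below. Among all probe sets tested 31.0% did not (15.6% above, 15.4% below). Cish and Sh2b3 had the lowest p-values, and both encode brakes on cytokine signalling. Cish, a Stat5 target, gave 4.70 and 4.29 in Crebbp+/-, against 3.73 and 4.19 in wild type, a difference of 0.54 with a standard error of 0.30. Its arrays spread widely, from 2.64 to 4.82 within wild-type sample 1. Sh2b3, the adaptor Lnk, gave 8.96 and 9.09 in Crebbp+/-, against 8.73 and 8.66 in wild type, a difference of 0.33 with a standard error of 0.20. Stat5b gave 8.34 and 8.46, against 8.20 and 7.76, and also did not overlap, while Jak2 and Stat5a overlapped. Socs2, another Stat5 target, ran the other way, with 7.70 and 7.68 in Crebbp+/-, against 7.87 and 7.98 in wild type.

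Tfrc, the receptor that brings transferrin-bound iron into cells, had signal far above background in every sample, and its probe sets did not move together. Probe set 1452661_at gave 11.01 and 10.58 in Crebbp+/-, against 10.63 and 10.61 in wild type. One Crebbp+/- sample lay above the other 3 samples, which were nearly equal. The difference was 0.17 (standard error 0.20, 95% interval -0.35 to 0.70, limma adjusted p 0.991), with 0.38 within sample number 1 and -0.04 within number 2. Probe set 1422966_a_at gave 7.63 and 7.72 in Crebbp+/-, against 7.54 and 6.76 in wild type. Here the genotypes did not overlap, but the odd sample was wild-type sample 2, and the difference of 0.53 had an interval from -0.39 to 1.44. Probe set 1422967_a_at gave 3.49 and 3.60 in Crebbp+/-, against 3.66 and 4.24 in wild type. It ran the other way, by -0.40 (interval -1.14 to 0.33), and again wild-type sample 2 stood apart, through its first array at 4.83. Distances from the background median were 8.0, 4.71 and 1.04 in the same order of probe sets.

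The Tfrc controls of the manufacturer, which are placed at the 5′ end, the middle and the 3′ end of the transcript, were read as values only. The 3′ control gave 7.56 and 7.61 in Crebbp+/-, against 7.38 and 6.65 in wild type. It followed 1422966_a_at, from which it differed by at most 0.25 on any of the 8 arrays. The middle control gave 3.31 and 3.78 in Crebbp+/-, against 3.44 and 4.15 in wild type. It shared with 1422967_a_at the first array of wild-type sample 2, which read 4.83 in both. The 5′ control was at background, with 2.43 and 2.38 in Crebbp+/-, against 2.38 and 2.38 in wild type. The gap between the end controls of a widely expressed transcript is a common gauge of RNA and amplification quality. For Gapdh the 5′ control minus the 3′ control was -0.89 and -1.88 in Crebbp+/-, against -1.22 and -2.59 in wild type. For Tfrc it was -5.13 and -5.23 in Crebbp+/-, against -5.00 and -4.27 in wild type, with its 5′ control at background throughout. Wild-type sample 2, lowest in the Tfrc 3′ control and highest in the middle one, had the steepest Gapdh gradient. The part of that gradient in the Tfrc values was not tested.

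Across the transferrin cycle and iron handling, 18 of 20 listed genes were matched (Trf and Ftl1 were not analysed here), 16 were tested and none passed. There were 11 positive and 5 negative differences with a median of 0.04, beside 53.0% positive among all probe sets tested. Slc11a2, which moves iron out of the endosome after Tfrc has delivered it, gave 4.73 and 3.86 in Crebbp+/-, against 3.46 and 3.51 in wild type, without overlap. Its difference was 0.82 with a standard error of 0.36. Ncoa4, the receptor for ferritin breakdown, gave 10.28 and 9.76 in Crebbp+/-, against 9.90 and 8.99 in wild type. Tfr2, the relative of Tfrc that also associates with the erythropoietin receptor, gave 6.26 and 7.04 in Crebbp+/-, against 6.83 and 8.05 in wild type, a difference of -0.79 with a standard error of 0.53.

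Slc4a1, which encodes the anion exchanger band 3, was the only one of the 9 genes with an unadjusted p under 0.05, and this came from a probe set at the edge of background. Probe set 1434502_x_at gave 2.93 and 3.45 in Crebbp+/-, against 2.46 and 2.52 in wild type. The averages were 3.19 ± 0.37 in Crebbp+/- and 2.49 ± 0.04 in wild type (SD, n = 2 each). By limma the difference was 0.70 (standard error 0.24, 95% interval 0.08 to 1.33, unadjusted p 0.034, adjusted p 0.991). The probe set exceeded the sample median only in the Crebbp+/- samples and entered the test only through them.

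On single arrays the Slc4a1 signal was uneven within a sample. The Crebbp+/- arrays gave 2.55 and 3.31 for sample 1 and 2.53 and 4.37 for sample 2, against 2.50, 2.41, 2.53 and 2.50 in wild type. In each Crebbp+/- sample, then, 1 array carried the signal and the other read like wild type, only 0.0028 log2 units separating the lowest Crebbp+/- array from the highest wild-type one. Without the second array of Crebbp+/- sample 2 the difference was 0.24 with a limma p of 0.29, and without the second array of sample 1 it was 0.51 with a p of 0.19. The other probe sets of the gene were too dim to be tested. Probe set 1416464_at gave 2.41 and 2.79 in Crebbp+/-, against 2.38 and 2.41 in wild type, and 1431743_a_at gave 2.49 and 2.33, against 2.33 and 2.41. The first of these was raised on a single array, the second of Crebbp+/- sample 2, where it read 3.18. By the naming of this array, a probe set ending in _x_at may also pick up other transcripts.

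Other membrane genes were high on that same array. Among 26 probe sets of the membrane list that were too dim to be tested, 4 had their highest value there by more than 0.3 log2 units over the next array. They were Slc4a1 1416464_at with 3.18, a probe set of Xk with 3.14, one of Rhd with 2.85 and one of Sptb with 2.73, where the next arrays gave 2.42, 2.49, 2.36 and 2.31. Xk and Rhd encode blood group proteins and Sptb encodes erythroid beta-spectrin. The array was singled out because of Slc4a1, and of the 24 dim probe sets of other membrane genes 3 were highest there in this way. Of all 22519 dim probe sets, 1.47% were. On each of the other 7 arrays none of the 26 did so, against 0.88% to 2.33% of all dim probe sets. This count and its limit were chosen after the values had been seen. A probe set of Icam4 fell just short of the limit on another array, the second of Crebbp+/- sample 1. It read 2.86 there and 2.57 on the next array, a gap of 0.29. The third Slc4a1 probe set, 1431743_a_at, was also highest there, with 2.66, and read 2.34 on the second array of Crebbp+/- sample 2. Gata1 read 3.49 on this array and Klf1 2.26, and neither was highest there. A brighter Xk probe set, which was tested, was highest on the first array of Crebbp+/- sample 1, at 4.41.

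**Figure D3:**
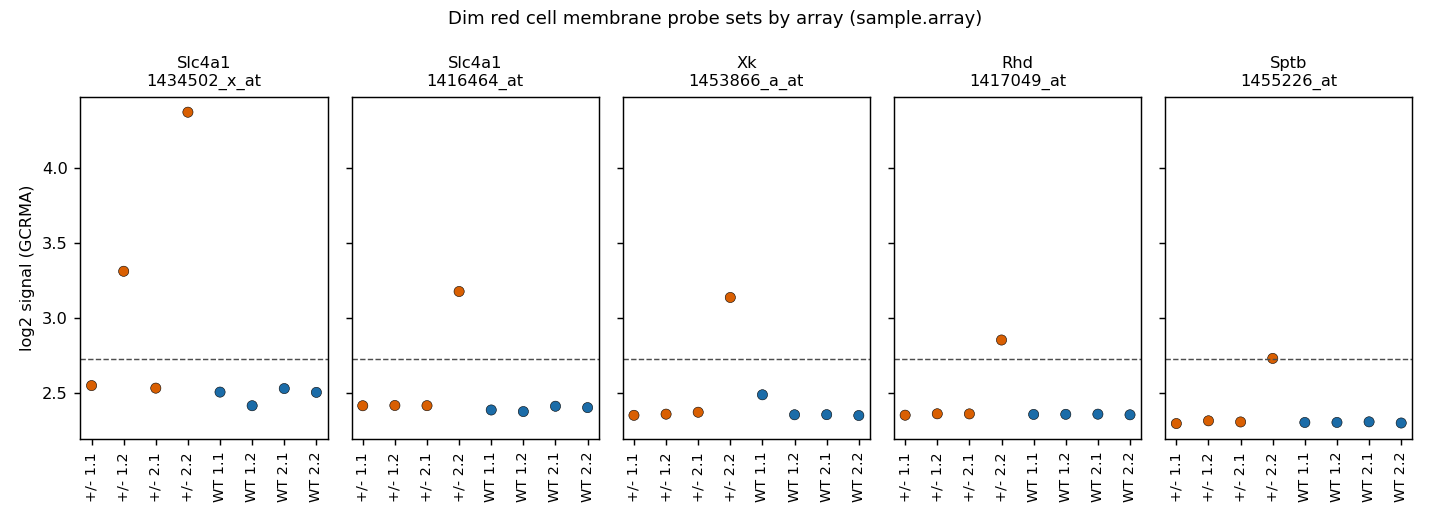
Log2 signal (GCRMA) of 2 of the 3 Slc4a1 probe sets and of 1 probe set each of Xk, Rhd and Sptb on each array, labelled by sample and array, Crebbp+/- (orange) left of wild type (blue), with the background median dashed. The panels were chosen for being highest on the second array of Crebbp+/- sample 2, which reads from 2.73 to 4.37; nearly all other arrays lie below the line.

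Ank1 and Epb42, whose proteins fasten band 3 to the skeleton, showed no signal. The 4 Ank1 probe sets lay between 2.21 and 2.33 in every sample, moved by at most 0.024 over the 8 arrays, and differed by 0.00 to 0.01 between genotypes. Epb42 was alike: 1417337_at gave 2.45 and 2.41 in Crebbp+/-, against 2.40 and 2.41 in wild type, and 1417338_at gave 2.27 and 2.27, against 2.26 and 2.26. Neither gene was among those raised on the second array of Crebbp+/- sample 2.

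The wider list of red cell membrane and skeleton genes had 25 members, of which 22 were matched and 11 tested, with none passing. There were 9 positive and 2 negative differences, beside 53.0% positive among all probe sets tested. Their median was 0.09, with -0.09 within sample number 1 and 0.17 within number 2. Genotypes did not overlap in 4 of the 11, all with Crebbp+/- above, beside 31.0% of all probe sets tested (15.6% above), and 1 of the 4 was the Slc4a1 probe set that entered only through the Crebbp+/- samples. Cd47, a surface signal found on most cells, gave 12.02 and 12.00 in Crebbp+/-, against 11.99 and 11.64 in wild type, a difference of 0.20 with a standard error of 0.16. Genes that many cell types use were among those with high signal, such as the glucose transporter Slc2a1 with 12.21 and 12.01 in Crebbp+/-, against 12.31 and 11.91 in wild type. Tmod1, which caps actin filaments, gave 10.65 and 10.73 in Crebbp+/-, against 10.58 and 10.56 in wild type. The genes of mature erythroid cells Rhag, Kel, Ermap and Tspo2 lay between 2.24 and 2.34 in all 4 samples. Other genes of the list did not stay so low. Slc14a1 gave 5.90 and 4.26 in Crebbp+/-, against 6.36 and 5.03 in wild type, and overlapped between genotypes. Aqp1 reached 3.15 in wild-type sample 2, and Icam4 reached 2.71 in Crebbp+/- sample 1.

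Car2, a cytosolic carbonic anhydrase of red cells and other tissues, stood 8.81 log2 units above the background median and was lower in Crebbp+/- within each sample number. Probe set 1448752_at gave 11.50 and 11.13 in the Crebbp+/- samples 1 and 2, against 12.01 and 11.40 in the wild-type samples 1 and 2. The averages were 11.32 ± 0.26 in Crebbp+/- and 11.70 ± 0.43 in wild type (SD, n = 2 each), and the genotypes overlapped. By limma the difference was -0.38 (standard error 0.26, 95% interval -1.07 to 0.30, unadjusted p 0.21, adjusted p 0.991). Within sample number 1 it was -0.51 and within number 2 it was -0.26. The arrays of a sample differed little: 11.48 and 11.53, then 11.22 and 11.05 in Crebbp+/-, against 11.98 and 12.04, then 11.41 and 11.38 in wild type. Both samples numbered 2 lay below the sample numbered 1 of their genotype, with differences of -0.37 in Crebbp+/- and -0.61 in wild type.

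Car1, the isozyme that fills mature red cells, was at background and flat, with 2.29 and 2.29 in Crebbp+/-, against 2.28 and 2.28 in wild type, and a range of 0.039 over the 8 arrays. Of 16 carbonic anhydrase genes, 11 lay below the median in all 4 samples and 5 were tested, with none passing. There were 3 positive and 2 negative differences with a median of 0.09, although the medians within sample numbers 1 and 2 were -0.18 and -0.03. Car12, a membrane-bound isozyme, gave 5.30 and 5.76 in Crebbp+/-, against 4.75 and 4.56 in wild type. Its difference of 0.87 (standard error 0.30) had an unadjusted limma p of 0.037. Car3 gave 4.49 and 4.66 in Crebbp+/-, against 4.99 and 5.13 in wild type, a difference of -0.49 with a standard error of 0.26.

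Set side by side, the sample numbers gave differences of the same sign for 5 of the 6 probe sets tested, beside 62.4% of all probe sets tested. The exception was Tfrc 1452661_at, and the 5 include Slc4a1 1434502_x_at, which entered the test only through the Crebbp+/- samples. Sizes were less alike than signs. For Gata1, Slc4a1 1434502_x_at, Tfrc 1422966_a_at and Tfrc 1422967_a_at the samples numbered 2 gave the larger difference, and for Car2 the samples numbered 1 did. Each difference within a number rests on 1 sample of each genotype.

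**Figure D4:**
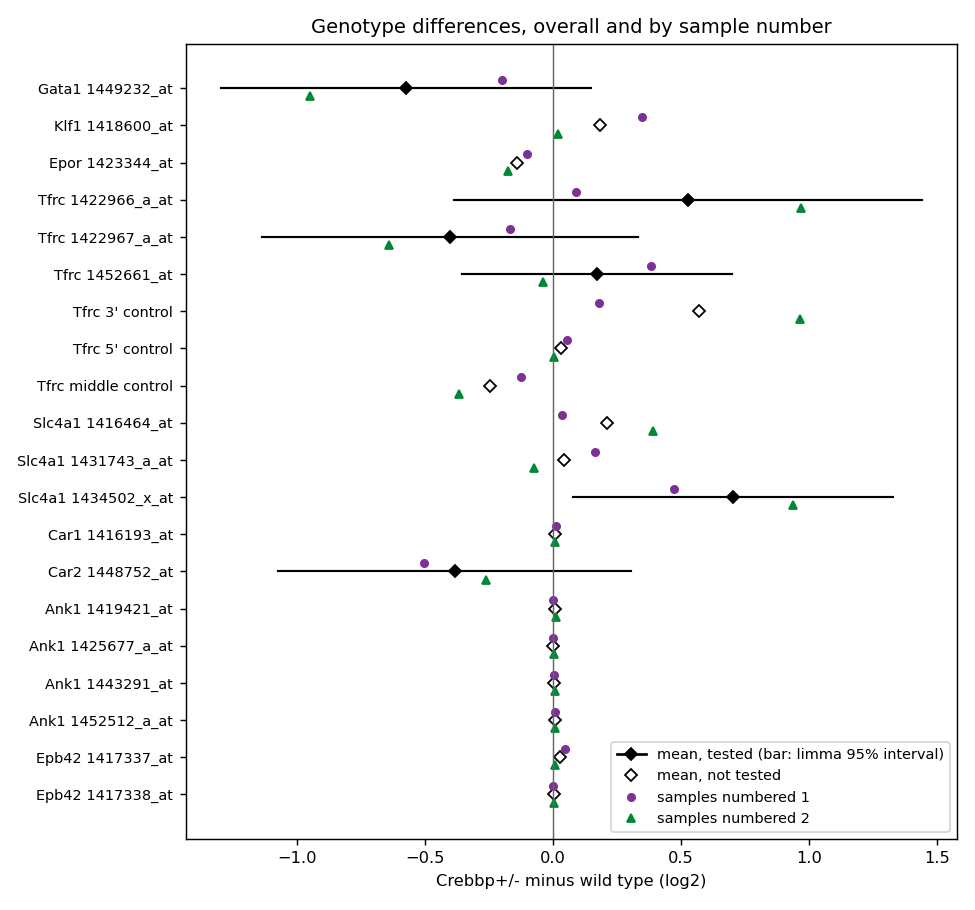
Difference of Crebbp+/- minus wild type in log2 units for each of the 20 probe sets, with diamonds for the means (filled where tested, with limma's 95% interval as a bar), circles for the samples numbered 1 and triangles for those numbered 2. Before adjustment the interval excludes 0 only for Slc4a1 1434502_x_at, from 0.08 to 1.33, which entered the test only through the Crebbp+/- samples, and the untested probe sets of Car1, Ank1 and Epb42 lie within 0.03 of 0.

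Genes that make haemoglobin in the same cells gave a mixed picture. Of 13 haem synthesis genes 11 were matched and 10 tested, with none passing, 5 positive, 5 negative and a median of -0.03. Fech, the enzyme that inserts iron into haem, gave 8.0 and 7.93 in Crebbp+/-, against 7.05 and 6.72 in wild type, a difference of 1.08 (standard error 0.26, unadjusted limma p 0.010). Urod, an earlier enzyme of the pathway, gave 10.57 and 10.39 in Crebbp+/-, against 10.98 and 10.69 in wild type. The erythroid first enzyme Alas2 was flat at 2.20 in all 4 samples, whereas the general form Alas1 gave 5.70 and 6.41 in Crebbp+/-, against 5.74 and 5.65 in wild type. Of 10 globin genes and chaperones 6 were matched and 2 tested, neither of which passed. Hba-a2 gave 10.21 and 9.50 in Crebbp+/-, against 10.10 and 9.12 in wild type, and Hbb-b2 stayed between 4.65 and 4.68. The Hbb-b2 probe set moved by only 0.05 over the 8 arrays, so expression could not be told from a fixed background value of its own.

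Lists of the other cell types that the sort could hold were read in the same way, and no member of any of them passed. In the megakaryocyte list, a lineage that also needs Gata1, all 5 genes tested of 8 matched had negative differences, with a median of -0.17. Among all probe sets tested 53.0% were positive. In 3 of the 5 the genotypes did not overlap, all with Crebbp+/- below, beside 31.0% of all probe sets tested (15.4% below). Averaged over the 5 genes, the list stood at 4.72 and 4.87 in Crebbp+/-, against 5.36 and 5.49 in wild type. Vwf gave 2.77 and 2.76 in Crebbp+/-, against 4.03 and 4.79 in wild type (limma p 0.0042 unadjusted), and Gp9 gave 5.37 and 5.85, against 6.84 and 6.80. The other differences were smaller. Itga2b (-0.03) and Nfe2 (-0.10) overlapped between genotypes, and Pf4 (-0.17) lay near background. Gp5, too dim to be tested, ran the other way (0.15). Of 9 matched genes in the mast cell and basophil list, another lineage of Gata1, 5 lay below the median in all 4 samples. The 3 tested, Cpa3, Mcpt8 and Kit, had positive differences, but Mcpt8 (0.20) and the sort gene Kit (0.12) overlapped between genotypes. Cpa3 gave 5.27 and 5.44 in Crebbp+/-, against 2.92 and 3.45 in wild type (limma p 0.00087 unadjusted). Averaged over those 3 genes, that list stood at 5.98 and 5.96 in Crebbp+/-, against 5.16 and 5.11 in wild type. The part of such cells in the Gata1 values was not tested.

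Hepatocyte genes, from the tissue that surrounds these cells, spanned a wide range between samples. Over the 7 tested of 14 matched, their average level was 4.88 and 5.27 in Crebbp+/-, against 2.87 and 6.44 in wild type. Afp gave 6.71 and 7.08 in Crebbp+/-, against 3.68 and 8.50 in wild type. Fga, at 2.34 and 2.35 in Crebbp+/-, against 2.34 and 4.51 in wild type, and Rbp4, at 2.59 and 2.56, against 2.30 and 4.15, were highest in wild-type sample 2. By this average wild-type sample 1 was the lowest and wild-type sample 2 the highest. Of 14 matched island macrophage genes, 9 lay below the median in all 4 samples. The 3 tested, C1qb, Csf1r and Dnase2a, averaged 6.84 and 7.84 in Crebbp+/-, against 6.83 and 7.82 in wild type. Their lowest p-values were those of C1qb, with 2.77 and 3.96 in Crebbp+/-, against 2.59 and 3.53 in wild type, and of Csf1r, with 9.31 and 10.90, against 9.81 and 10.76. Granule myeloid genes, 7 tested of 7 matched, averaged 8.51 and 8.40 in Crebbp+/-, against 8.59 and 8.67 in wild type. Lyz2 gave 9.03 and 8.89 in Crebbp+/-, against 9.56 and 9.42 in wild type, and Csf3r gave 6.67 and 6.94, against 7.12 and 7.18. The stem and progenitor sort genes, 9 tested of 9 matched, averaged 9.04 and 9.0 in Crebbp+/-, against 9.38 and 9.27 in wild type, and 3 of the 9 had an unadjusted limma p under 0.05, beside 4.84% of all probe sets tested. The 3 were transcription factors of stem cells and not surface proteins used in the sort. Meis1 gave 6.92 and 6.08 in Crebbp+/-, against 7.99 and 7.52 in wild type, Hlf 9.57 and 9.30, against 9.88 and 10.08, and Mecom 11.35 and 11.22, against 11.74 and 11.58. The part of other cell types in the values of the 9 genes was not tested.

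Finally, genes with the most similar pattern over the 4 samples were named by the root mean square difference of their log2 values after each had been centred on its own mean. For Gata1 these were Hpgds (0.028 log2 units), Rtkn (0.036) and Cpeb2 (0.049), and 27 of 10599 genes lay within 0.1. For Slc4a1 they were Ms4a4c (0.018), Smurf2 (0.033) and Itpripl2 (0.068), with 12 genes within 0.1. Those for Car2 were Gnat2 (0.024), 2610507I01Rik (0.038) and Evi2a (0.041), with 43 within 0.1. Tfrc 1452661_at was closest to Arid3b (0.0088), 1700019D03Rik (0.019) and Fzd3 (0.021), with 282 within 0.1. Epor moved so little that 987 genes lay within 0.1, the nearest being Mettl5 (0.012), Smarca2 (0.017) and Plpbp (0.019). With 4 samples such likeness is a description of these preparations.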

How the data were processed

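RNA of 4 numbered samples was measured on 8 Affymetrix arrays. The deposited values are log2 signals made with GCRMA, per the submitters' processing notes. The sources used here name neither version nor settings. No scanner files were used here.

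Platform annotation named the probe sets. Of 45037 that were not controls, 34945 had 1 symbol, 932 several and 9160 none listed; identifiers of 34741 matched the GRCm38.p6 gene table and no symbol changed. The 2 arrays of a sample were averaged. Probe sets with a mean above 2.72 entered limma 3.58.1 (R 4.3.3; lmFit, eBayes with an intensity trend), with p-values adjusted by Benjamini-Hochberg, and a threshold of 0.05. Control probe sets were left out of the fit. An exact two-sided permutation test of 2 against 2 samples cannot go below 0.33 and was not used. A gene in a list stands by its brightest probe set.

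Every probe set of the 9 genes is reported. For each of 13 lists the rule named genes past the test, or failing those the pair of lowest p, with the pair of brightest genes added for other cell types, not all of which are printed. Further list genes were chosen after their values were seen. Members and lists were chosen with earlier results of these data known. When tested on simulated data, in which 200 of 22518 probe sets were shifted with the spread of these samples, the fit recovered 0% of shifts of 1 or 2 log2 units and 53% of shifts of 3. Alternatives changed the unit of replication, a block on the sample number, the filter, normalization, floor and variance model, and left out samples and arrays.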

Additional observations from a re-analysis of the deposited data

Results flagged for a closer look

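Single arrays of a genotype were compared by Dixon's test over its 4 arrays, in 40 groups of arrays from the 20 probe sets. The arrays of a sample are repeat measurements, so an array that stands apart is not a sample that does. In 8 groups an array stood apart, and in 4 of the 8 the arrays spanned less than 0.3 log2 units. For independent values chance gives about 1 in 20. Repeat arrays of a sample and probe sets of the same gene are not independent, so the 8 cannot be set against that rate. Tfrc 1422967_a_at read 4.83 on the first array of wild-type sample 2, where the nearest array gave 3.67. The Tfrc middle control read 4.83 on the same array, where the nearest gave 3.46. Slc4a1 1416464_at read 3.18 on the second array of Crebbp+/- sample 2, where the nearest gave 2.42. Slc4a1 1431743_a_at read 2.66 on the second array of Crebbp+/- sample 1 and 2.49 on the first array of wild-type sample 2, where the nearest gave 2.34 and 2.33. Epor read 2.58 on the first array of Crebbp+/- sample 2, where the nearest gave 2.46. On the first array of Crebbp+/- sample 1 the Tfrc 5′ control read 2.48 and Epb42 1417337_at read 2.47, where the nearest gave 2.39 and 2.42.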

How the results depend on the processing

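None of the member probe sets passed the adjusted test under any alternative run. With the 8 arrays taken as independent samples 1 probe set of the array passed, which was none of theirs, and 2459 had an unadjusted limma p under 0.05, against 1089 with samples averaged; 1677 did so with no filter and 335 of 11259 among the upper 25%. Leaving out a sample gave 525 (Crebbp+/- sample 1), 595 (Crebbp+/- sample 2), 1720 (wild-type sample 1) and 1161 (wild-type sample 2). The median over the 20 probe sets, 0.00738, was 0.00538 after quantile normalization, 0.04742 after centring each array, 0 with a floor, and 0.00135 to 0.02093 with a sample or array left out. Of the single differences 386 stayed within 1 SD or on their side of the threshold, 36 moved and 1, of a tested probe set, changed sign: Tfrc 1452661_at was -0.046 without Crebbp+/- sample 1 (range -0.046 to 0.39). The 386 include runs that changed only the fit or the filter, in which the difference itself could not move. Among untested probe sets 5 also changed sign with a sample or array left out, among them the Tfrc middle control (-0.60 to 0.11) and Slc4a1 1431743_a_at (-0.043 to 0.13); the others, of Car1, Ank1 and Epb42, stayed within 0.02 of 0. With samples or arrays left out Gata1 ranged from -0.82 to -0.33, Car2 from -0.69 to -0.078, Slc4a1 1434502_x_at from 0.24 to 1.16, Tfrc 1422966_a_at from 0.14 to 0.92 and Tfrc 1422967_a_at from -0.70 to -0.10.

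List medians with a sample left out ranged from -0.149 to -0.060 for transcription factors, -0.0035 to 0.31 for erythropoietin signalling, 0.020 to 0.16 for the membrane, -0.16 to 0.12 for carbonic anhydrases, -0.046 to 0.11 for iron, -0.081 to 0.11 for haem, -0.11 to 0.37 for globins, -1.27 to 2.71 for hepatocytes, -0.61 to 0.62 for macrophages, -0.28 to -0.24 for megakaryocytes, 0.020 to 0.39 for mast cells, -0.21 to -0.058 for granule genes and -0.37 to -0.037 for the stem list. With no filter the megakaryocyte median was -0.096, against -0.17, as more genes then counted; so computed, the medians were 0.054 for the membrane, 0.021 for carbonic anhydrases, 0.12 for erythropoietin signalling, 0.11 for iron, 0.0012 for haem, 0.064 for globins, 0.0018 for macrophages, 0.12 for mast cells and 0.14 for hepatocytes. With all probe sets of a gene averaged, they were 0.068 for iron, -0.054 for haem and 0.45 for hepatocytes. The cause of the other shifts was not tested.

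A replicate block on the sample number left 0 probe sets past the test (lowest adjusted limma p 0.114) and 3673 had an unadjusted p under 0.05, among them Car2 (p 0.0061, adjusted 0.163) and Slc4a1 1434502_x_at (p 0.022, adjusted 0.222). Samples of the same number deviated together (correlation 0.55), but there are only 2 pairs and no label ties a number to a litter or day. Both samples numbered 2 also had the steeper Gapdh gradient of their genotype. It was -1.88 in Crebbp+/- and -2.59 in wild type, against -0.89 and -1.22 in the samples numbered 1. What the samples of a number have in common was not tested.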
